A study of Mus musculus with 158 samples.

Results

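The hairpins described here were 24 short hairpin RNAs (shRNAs) that mouse pancreatic cancer cells still carried after 28 days in culture but that had become rare in the tumours the same cells formed in lungs. They were chosen from 1000 targeting hairpins against 285 genes by their own measured shares. A share is a hairpin's reads as a percentage of all targeting reads of its pool in one library. A member had a mean day 0 share of at least 0.5%, a mean culture share of at least 0.5 times the day 0 share, and a mean lung share of at most 0.25 times the day 0 share. Lung values existed for 892 hairpins, 631 of them met the day 0 limit, 411 of these also met the culture limit, and 24 of those met the lung limit. Because the choice used all 3 arms, the differences of the 24 hairpins between arms are given as a description, with no test.

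All samples came from PDA530 Met, a single mouse pancreatic adenocarcinoma line derived from a liver metastasis, which carried 1 of 19 virus-delivered hairpin pools (multiplicity of infection 0.3, then puromycin at 3 µg/ml for 4 days). The day 0 group was a pellet of these selected cells, the culture group was grown for 28 days in dishes, and the lung group was genomic DNA of tumours collected 28 days after tail-vein injection, with the tumours of each mouse combined. The strain, age and sex of the mice and any transgene of the cell line are not given in the labels. Lung samples of a pool were separate mice and cultures were grown in parallel, but nothing says that day 0 samples were more than repeated samplings of one population, so their spread may be technical.

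In a pooled shRNA screen each hairpin enters the genome of a cell, directs the cell's own RNA interference machinery against one messenger RNA, and is inherited by every daughter cell. The hairpin therefore also works as a barcode, and counting it by PCR from genomic DNA measures how much of the population descends from the cells that received it. Injection into the tail vein delivers cells to the lung's small vessels, where they must survive, leave the circulation and grow, and only a part of the injected cells does so. A read share measures descent, and the degree to which each hairpin silenced its target was not measured in these files. Hairpins are named by their library number, and their sequences were not used here.

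The members lay in 14 of the 17 pools with lung values. Pools 1 and 18 held 4 each, pool 14 held 3, pools 4 and 12 held 2 each, and pools 2, 6, 7, 8, 9, 10, 11, 15 and 19 held 1 each. Recovered reads per library lay between 4122499 and 13226329 at day 0, 4525346 and 13728338 in culture, and 58189 and 11104545 in lungs. In the pools of the members, lung samples held 40555 to 10113308 targeting reads of their own pool. Lungs 6A was the shallowest of them. No member was at 0 reads in any library, the lowest lung count was 60 reads and the median was 10223. Lungs 10C and Lungs 16D, which hold mostly reads of other pools than their labels name, were left out by the rule. Pool 10 hairpins made up 71.0% of the reads in Lungs 16D, and Lungs 10C held 1946 targeting reads of pool 10.

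The 24 members targeted 24 different genes, so no gene had a second member. Their mean lung share was a median of 0.140 times the day 0 share, and their mean culture share a median of 0.691 times it, against 0.951 and 1.02 over the 411 hairpins that met the day 0 and culture limits. All 24 were lower in every lung sample than in every culture sample, an order that 23.7% of the 892 hairpins showed. All 24 were also lower in every lung sample than in every day 0 sample, as were 47.5% of the 892. Nothing is read from these counts, since the rule used these contrasts. Of the 70 lung values of the members, 65 were at most 0.25 times the day 0 mean, and for 20 of the 24 hairpins every lung value was. Pcdh15, Sec63, Ntf3 and Tmem33 each had at least 1 lung sample above that limit. At day 0 the members were a little rarer than the other 387 hairpins, with a median share of 1.65% against 2.22%. Their spread between samples was lowest at day 0, with a median coefficient of variation of 7.72%, and rose to 16.7% in culture and 39.1% in lungs, against 6.36%, 15.7% and 30.6% in the other 387.

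Culture itself did not treat the members alike. In 14 of them every culture sample lay below every day 0 sample, an order that 26.3% of the 411 hairpins showed. In 4 members, among them Gosr2, Fyb and Ntf3, every culture sample lay above every day 0 sample, as in 35.0% of the 411. The rule used both arms, so these counts too are a description. Another 220 hairpins with at least 0.5% at day 0 fell short of the culture limit, and 68 of these (30.9%) met the lung limit, against 24 of 411 (5.84%) that had kept their culture share.

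Targets that belong to the basic machinery of every cell were hit by the members against Eftud2, Cnot2, Trit1, Rpa3 and Kpnb1, with lung means 5.74-fold to 8.78-fold below day 0. Eftud2 encodes a GTPase of the U5 particle in the spliceosome, which removes introns. Its hairpin TRCN0000123640 in pool 9 had shares of 1.25%, 1.29% and 1.18% at day 0, and of 0.260% and 0.0211% in the 2 lung samples of that pool. In culture it had 1.19%, 1.37% and 1.22% in the mixture of pools 8 and 9, and 0.386%, 0.441% and 0.942% in the mixture of pools 9 and 10. Both lung samples lay below all 6 cultures, the lung mean was 8.78-fold below day 0, and the 2 mice differed widely. Without Lungs 9A its log2 change from day 0 moved from -3.13 to -5.87, and without Lungs 9C to -2.25. The first mixture came from another sequencing lane than day 0 and averaged 1.26 ± 0.0952% (SD, n = 3), which is 1.02 times day 0. The second came from the lane of day 0 and averaged 0.590 ± 0.306% (SD, n = 3), which is 0.477 times day 0 and under the culture limit. Eftud2 is thus a member only through the cultures of the other lane.

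Cnot2 encodes a scaffold subunit of the CCR4-NOT complex, which shortens the poly(A) tails of messenger RNAs and so starts their decay. TRCN0000233432 in pool 18 had 4.68%, 4.20% and 4.72% at day 0, 2.40%, 2.27% and 2.81% in culture, and 0.993%, 0.470% and 0.901% in lungs. Its 3 lung samples were all below the lowest culture, the lung mean was 3.16-fold below the culture mean, and the culture samples were themselves below all day 0 samples. Trit1 encodes the enzyme that adds an isopentenyl group to certain transfer RNAs. TRCN0000375310, also in pool 18, averaged 5.98 ± 0.320% at day 0, 4.22 ± 0.124% in culture and 1.04 ± 0.246% in lungs (SD, n = 3 each), with lung values from 0.889% to 1.33%. Both pool 18 hairpins followed the order day 0, culture, lungs without overlap.

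Rpa3 encodes the smallest subunit of replication protein A, which coats single-stranded DNA during replication and repair. TRCN0000126818 in pool 12 averaged 3.49 ± 0.257% at day 0, 2.95 ± 0.532% in culture and 0.540 ± 0.157% in lungs (SD, n = 3 each). Kpnb1 encodes importin beta, the carrier that brings proteins through the nuclear pore. TRCN0000325851 in pool 14 averaged 0.727 ± 0.0473% at day 0, 0.368 ± 0.158% in culture and 0.110 ± 0.0907% in lungs (SD, n = 3 each). It met the culture limit narrowly, at 0.506 times day 0, and its lung values ran from 0.00767% in Lungs 14A to 0.181%.

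In the secretory pathway 4 members hit proteins of the endoplasmic reticulum and Golgi. Gosr2 encodes a SNARE, a protein that fuses transport vesicles with the Golgi. TRCN0000115092 in pool 10 had 0.602%, 0.741% and 0.744% at day 0, and 0.0540% and 0.0308% in Lungs 10A and 10B. In culture it had 6.56%, 8.18% and 4.76% in the mixture of pools 9 and 10 and 5.49%, 4.21% and 4.56% in the mixture of pools 10 and 11. It thus had the widest gap between dish and lung of the 24 members, with a lung mean 16.4-fold below day 0 and 133-fold below culture, and both culture mixtures stood above day 0, at 9.34 and 6.83 times its mean. The result rests on 2 mice and on leaving out Lungs 10C, where the same hairpin held 352 of the 1946 pool 10 reads (18.1%). With Lungs 10C and 16D kept, Gosr2 was not a member and its log2 change from day 0 to lungs turned to 3.12. Lungs 16D, labelled for pool 16, held 161 reads of this hairpin among 4457119 pool 10 reads, a share of 0.00361%.

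Zdhhc20 encodes a palmitoyltransferase, an enzyme of the secretory membranes that attaches fatty acids to proteins such as surface receptors. TRCN0000328698 in pool 19 had 4.38%, 4.40% and 4.79% at day 0, 2.28%, 3.12%, 2.42% and 2.67% in 4 cultures, and 0.426%, 0.465% and 0.900% in lungs. Every lung sample lay below every culture, and every culture below every day 0 sample, with the lung mean 7.58-fold below day 0. Sec63 encodes a partner of the channel through which new proteins enter the endoplasmic reticulum. TRCN0000353321 in pool 14 averaged 1.67 ± 0.214% at day 0, 0.904 ± 0.168% in culture and 0.320 ± 0.286% in lungs (SD, n = 3 each). Its SD in lungs was nearly as large as the mean, since Lungs 14A had 0.0163% and the other mice 0.357% and 0.586%. Tmem33 encodes a membrane protein of the endoplasmic reticulum. TRCN0000320319 in pool 18 averaged 5.16 ± 0.237% at day 0, 2.66 ± 0.556% in culture and 1.27 ± 0.501% in lungs (SD, n = 3 each), and at 0.246 times day 0 it was the member nearest to the lung limit.

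Signalling proteins and transcriptional regulators were the targets of 4 members. Ctnnb1 encodes beta-catenin, which joins cadherins to the cytoskeleton and carries the Wnt signal into the nucleus. TRCN0000012690 in pool 1 had 1.23%, 1.18% and 1.54% at day 0, 0.830%, 0.704% and 0.910% in culture, and 0.198%, 0.0892% and 0.128% in lungs. The 3 arms did not overlap, and the lung mean was 9.54-fold below day 0 and 5.90-fold below culture. Lungs 1A was sequenced again as a technical repeat, and the repeat gave 0.192% where the first run gave 0.204%. Repeats of the other arms lay further apart, at 1.42% and 1.04% for Day 0 1A and 0.716% and 0.945% for Cells 1/2A, as wide as the range between samples of those arms.

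Foxa1 encodes a pioneer transcription factor that opens chromatin in endodermal tissues. TRCN0000095382 in pool 6 averaged 0.792 ± 0.0780% at day 0, 0.502 ± 0.476% in culture and 0.117 ± 0.0365% in lungs (SD, n = 3 each). Its place rests on an uneven culture, since without culture replicate B it was no member. Lungs 6A had 60 reads of 40555, a share of 0.148% with an exact binomial 95% interval of 0.113% to 0.190%, and 1 culture had 1.05% while the others had 0.202% and 0.253%. Arid2 encodes a subunit of a SWI/SNF chromatin remodelling complex. TRCN0000225732 in pool 18 averaged 0.625 ± 0.123% at day 0, 0.561 ± 0.316% in culture and 0.103 ± 0.0255% in lungs (SD, n = 3 each), and no other hairpin of pool 18 that met the day 0 limit had a lower ratio of lungs to day 0. Ntf3 encodes neurotrophin-3, a growth factor for neurons. TRCN0000065439 in pool 1 averaged 0.591 ± 0.0245% at day 0 and 0.682 ± 0.0494% in culture (SD, n = 3 each). Its lung values were 0.104%, 0.236% and 0.00416%, a 56.7-fold range between mice, and 1 of the 3 was above 0.25 times day 0.

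Immune signalling proteins were the targets of the members against Naip1 and Fyb, with lung means 8.92-fold and 8.42-fold below day 0. Naip1 encodes an inflammasome sensor of bacterial secretion systems. TRCN0000114747 in pool 7 had 2.05%, 2.26% and 2.64% at day 0, 1.33%, 1.54% and 1.44% in culture, and 0.398%, 0.153% and 0.229% in lungs. The arms stood apart in the order day 0, culture, lungs.

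Fyb encodes an adaptor protein best known from T cells and platelets, where it links receptors to integrin activation. TRCN0000109751 in pool 8 had 2.19%, 2.19% and 1.95% at day 0, 3.76%, 5.04% and 4.10% in culture, and 0.202%, 0.360% and 0.189% in lungs. The cultures lay about 2.04 times above day 0 and the lungs 8.42-fold below it, a gap of 17.2-fold between lungs and culture that was second only to Gosr2 among the members. In the technical repeat of Lungs 8A the share was 0.2022% against 0.2026% in the first run, while the runs of Day 0 8A gave 1.93% and 2.44% and those of Cells 8/9A gave 3.36% and 4.16%.

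Large extracellular and adhesion proteins were the targets of 4 members. Lama1 encodes the alpha 1 chain of laminin, a protein of basement membranes. TRCN0000094206 in pool 1 had 1.72%, 1.74% and 1.74% at day 0, 1.15%, 1.21% and 1.16% in culture, and 0.216%, 0.107% and 0.0741% in lungs. The lung mean was 13.1-fold below day 0 and 8.85-fold below culture. Csmd3 and Csmd1 encode related transmembrane proteins with many CUB and Sushi domains, Csmd1 being known as a regulator of complement. TRCN0000087306 against Csmd3, also in pool 1, had 7.70%, 7.89% and 7.39% at day 0, 6.33%, 6.87% and 6.25% in culture, and 0.715%, 0.435% and 0.812% in lungs. It was the most abundant member at day 0, kept 0.846 times that share in culture, and was 11.7-fold lower in lungs.

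The hairpin against Csmd1, TRCN0000101370 in pool 2, had 0.826%, 0.862% and 0.994% at day 0, 0.558%, 0.595% and 0.590% in culture, and 0.134%, 0.0985% and 0.0700% in lungs. Its cultures were close to one another and all its mice lay below them, by 5.76-fold on average. Pcdh15 encodes a protocadherin known from the tip links of hair cells in the inner ear. TRCN0000094900 in pool 4 averaged 0.639 ± 0.0548% at day 0, 0.355 ± 0.113% in culture and 0.122 ± 0.0419% in lungs (SD, n = 3 each), with lung values from 0.0879% to 0.169%.

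A further 3 members hit ion channel subunits and a testis gene. Spert, named Cby2 in current RefSeq annotation, encodes a spermatid protein. TRCN0000198891 in pool 12 had 1.61%, 1.49% and 1.80% at day 0, 0.581%, 1.07% and 0.841% in culture, and 0.0852%, 0.126% and 0.0538% in lungs. With a lung mean 18.5-fold below day 0 it had the lowest ratio of the 24, but its culture mean was only 0.509 times day 0, near the limit. Dpp6 encodes an auxiliary subunit of Kv4 potassium channels. TRCN0000031426 in pool 4 had 3.21%, 3.62% and 3.12% at day 0, 2.15%, 2.61% and 2.41% in culture, and 0.318%, 0.351% and 0.228% in lungs. The mice lay close together, the arms did not overlap, and the lung mean was 11.1-fold below day 0. Cacng2 encodes stargazin, which brings AMPA receptors to synapses. TRCN0000428781 in pool 15 averaged 1.12 ± 0.447% at day 0, 1.12 ± 0.767% in 4 cultures (n = 4) and 0.179 ± 0.0848% in lungs (SD, n = 3 for day 0 and lungs), with lung values from 0.118% to 0.276%.

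Shares of a pool sum to a fixed total, and in 2 pools of the members a single hairpin held over 50% of the reads in at least 1 mouse. In the lungs of pool 1, another hairpin against Lama1, TRCN0000094205, held 66.7%, 57.1% and 65.7% of the reads, against means of 22.6% at day 0 and 24.8% in culture. In Lungs 14A, TRCN0000366646 against Col11a1, a collagen chain, held 50.6% against 1.12% at day 0, and the members of pool 14, Kpnb1 and Sec63 among them, all had their lowest value in that mouse. Relative to the median lung to day 0 ratio of its own pool, a member's ratio exceeded 0.25 in 6 cases, with 0.318 for Kpnb1, 0.301 for Cacng2, 0.252 for Pcdh15, 0.404 for Sec63, 0.439 for Ntf3 and 0.262 for Tmem33. In 8 of the 24 the ratio was the lowest of all hairpins of the pool that met the day 0 limit. Since the rule chose members by this ratio, the count is a description. With such dominating hairpins left out of the totals, an alternative added after seeing the data, the rule again found 24 hairpins, 23 of them the same, with Ntf3 replaced by a hairpin against Il2rg. The log2 change from day 0 to lungs then moved from -3.71 to -2.59 for Lama1, from -3.55 to -2.43 for Csmd3 and from -3.25 to -2.12 for Ctnnb1. Without Lungs 6A and 14A, also added after seeing the data, 23 of 24 remained and Sec63 was replaced by a hairpin against Il1a. The part of such hairpins in the other members' values was not tested further.

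Close to the limits, hairpins on both sides had similar values. Just inside the lung limit lay Tmem33 at 0.246 times day 0, and just outside it TRCN0000067050 against Il1a at 0.258 and TRCN0000438017 against Dpep1 at 0.261. Just inside the culture limit lay Kpnb1 at 0.506 and Spert at 0.509 times day 0, and just outside it TRCN0000094902 against Pcdh15 at 0.473 and TRCN0000068117 against Il2rg at 0.490. At the day 0 limit, Ntf3 at 0.591% and Arid2 at 0.625% were the rarest members. The most abundant hairpins that failed only this limit were TRCN0000328230 against Igfbp6 at 0.367% and TRCN0000068116 against Il2rg at 0.234%.

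To ask whether such a loss recurs in a mouse that the choice did not use, each of 46 lung samples was left out of the rule in turn and the hairpins then found were read in it. This gave 88 pairs of a hairpin and a left-out mouse, over 44 hairpins. In 62 of the 88 pairs (70.5%) the share in the left-out mouse was at most 0.25 times day 0, against 118 of 1130 pairs (10.4%) over all hairpins that met the day 0 and culture limits, the chosen ones included. Among the 1042 pairs that were not chosen it was 56 (5.37%). The median ratio in the left-out mouse was 0.171 for the chosen pairs and 0.922 for the others. In 79 of the 88 (89.8%) the left-out mouse lay below the lowest culture, where 53.6% of the 1130 pairs did. The left-out value was divided by the same day 0 mean, and set against the same cultures, that chose the hairpin, and pairs share mice and pools, so these shares are a description without a test. Some pairs that did not recur belonged to the 24 members: Ntf3 stood at 0.399 times day 0 in Lungs 1B, Pcdh15 at 0.264 in Lungs 4C, Sec63 at 0.351 in Lungs 14C, and Tmem33 at 0.329 and 0.271 in Lungs 18A and 18B. Others belonged to hairpins chosen only without that mouse, such as TRCN0000304678 against Ankrd17, a scaffold protein with ankyrin repeats, which held 1.20 times its day 0 share in Lungs 19B, and TRCN0000340312 against Dtx1, a ubiquitin ligase of the Notch pathway, at 1.05 times in Lungs 14B.

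Each gene was also measured by other hairpins, most of them in the libraries of a member. The rule was applied to these hairpins as well and chose none, so their values are not independent of it. The 24 genes had 60 other hairpins, 44 in the member's own pool and 16 in another pool, and 58 had lung values. Of these, 28 met the day 0 and culture limits, and their lung shares had a median of 1.04 times day 0 and a range of 0.340 to 2.80. Since a hairpin that met both limits and was at most 0.25 times day 0 in lungs would be a member, all 28 had to lie above 0.25. Among the 41 with at least 0.5% at day 0, lungs were at most 0.25 times day 0 in 9 (22.0%), where 92 of all 631 such hairpins (14.6%) were, or 68 of 607 (11.2%) with the members left out. By the rule, all 9 were under the culture limit. The difference between these shares was not tested.

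Lungs were then compared with culture by limma on log2(CPM + 1), where CPM scales reads to one fixed total of the pool's targeting reads, with Benjamini-Hochberg (BH) adjustment over all hairpins of all pools and a threshold of 0.05. Of 57 other hairpins tested, 7 were lower in lungs (12.3%, where 13.7% of all 889 hairpins were, or 12.0% with the members left out) and 7 were higher (12.3%, where 12.6% of all were). Against day 0, 11 of 58 were lower in lungs (19.0%, background 22.2% of 891, or 20.5% with the members left out) and 11 higher (19.0%, background 18.0%). In culture against day 0, 19 of 60 were lower (31.7%, background 31.9% of 945) and 16 higher (26.7%, background 28.8%). In all 3 comparisons the counts were near the background. The median log2 change of these hairpins was -0.16 for lungs against culture, -0.12 for lungs against day 0 and -0.20 for culture against day 0, beside -0.08, -0.14 and -0.10 over all hairpins tested. The balance of lower and higher calls moved with the scaling: for lungs against culture it was 13 lower and 6 higher with library totals, against 4 lower and 10 higher with the deposited values. The median over all hairpins was then -0.17 and 0.22. For lungs against day 0 the counts were 18 lower and 7 higher with library totals, beside 13 lower and 7 higher with the deposited values, where the medians were -0.68 and -0.54. For culture against day 0 the same settings gave 24 lower and 14 higher, then 31 lower and 11 higher, with medians of -0.64 and -0.89.

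In Lama1, other hairpins of the same gene passed in opposite directions. Lama1 had 4 hairpins in pool 1. TRCN0000094205 had means of 22.6% at day 0, 24.8% in culture and 63.2% in lungs, a log2 change of 2.36 from culture to lungs (SE 0.27, limma, BH-adjusted p = 5.38e-05). TRCN0000094204 had 0.215%, 0.220% and 0.322% in culture and 0.0118%, 0.0414% and 0.0254% in lungs, a change of -2.40 (SE 0.43, limma, BH-adjusted p = 0.00154). All 3 mice lay below the cultures for this hairpin, but against day 0, where it had 0.103%, 0.105% and 0.0843%, the change of -0.97 did not pass (limma, BH-adjusted p = 0.0963). The other one, TRCN0000094207, changed by 0.57 (limma, BH-adjusted p = 0.166). The member of this gene thus had 1 hairpin beside it that was also lower in lungs than in culture and 1 that took over the pool.

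Eftud2 had 2 other hairpins. TRCN0000294567 in pool 15 had 0.0594%, 0.0241% and 0.0265% at day 0, 0.0340%, 0.104%, 0.00719% and 0.00528% in culture, and 16, 0 and 2 reads in the 3 mice. The 0 among 7834924 pool reads of Lungs 15C allows a share of up to 3.83e-05%, for counting error only. Its change from culture to lungs was -6.77 (SE 1.25, limma, BH-adjusted p = 0.0036) and from day 0 to lungs -7.03 (SE 0.84, limma, BH-adjusted p = 0.000832). Cultures differed among themselves by more than 10 times for this hairpin, yet all lay above every mouse. TRCN0000123642 in pool 9 had already fallen in culture, from a mean of 0.513% to 0.0538%, a change of -2.82 (SE 0.38, limma, BH-adjusted p = 4.02e-05). In lungs it had 0.126% in Lungs 9A, above its cultures, and 4.46e-05% in Lungs 9C, and the change against culture did not pass (limma, BH-adjusted p = 0.192).

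In 3 further genes a hairpin was lower in lungs than in culture by more than 1 on the log2 scale. TRCN0000328625 against Zdhhc20 had 2.36%, 2.21%, 1.99% and 2.12% in culture and 1.42%, 0.386% and 1.03% in lungs, a change of -1.68 (SE 0.49, limma, BH-adjusted p = 0.0228), while TRCN0000328623 changed by -0.92 (limma, BH-adjusted p = 0.166). TRCN0000114748 against Naip1 had 17.2%, 14.4% and 12.9% in culture and 8.89%, 4.63% and 5.41% in lungs, a change of -1.41 (SE 0.21, limma, BH-adjusted p = 1.15e-07). This small p rests on limma's prior, which had 139 degrees of freedom in pool 7, and the mice surrounded the day 0 values of 6.93%, 6.48% and 6.17%. From day 0 this Naip1 hairpin rose in culture by 1.64 (SE 0.15, limma, BH-adjusted p = 2.78e-05), and its change in lungs of 0.26 did not pass (limma, BH-adjusted p = 0.434). The other Naip1 hairpins, TRCN0000114746 and TRCN0000114749, changed by -0.16 and -0.24 (limma, BH-adjusted p = 0.656 and 0.443), and the latter was higher in lungs than at day 0, by 1.21 (limma, BH-adjusted p = 0.00192). TRCN0000094902 against Pcdh15 in pool 5 had 2.55%, 2.48% and 1.69% in culture and 1.41%, 1.10% and 1.02% in lungs, a change of -1.15 (SE 0.32, limma, BH-adjusted p = 0.0214). With the deposited values this change was 0.017. TRCN0000094899 and TRCN0000094901 changed by 1.10 and -2.71 (limma, BH-adjusted p = 0.0949 and 0.124).

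Csmd1 had a smaller change. TRCN0000101372 had 4.43%, 4.49% and 4.81% in culture and 3.19%, 3.63% and 3.49% in lungs, a change of -0.33 (SE 0.085, limma, BH-adjusted p = 0.0327), which turned to 0.65 with the deposited values. TRCN0000101371 and TRCN0000101373 changed by -0.24 and -0.43 (limma, BH-adjusted p = 0.305 and 0.0734). Against day 0 the last of these and TRCN0000101372 were higher in lungs, by TMM-scaled changes of 0.74 and 0.46 (limma, BH-adjusted p = 0.0049 and 0.0229). Their mean lung shares were 1.29 and 1.06 times day 0, so the second barely moved in shares. The member's lung share was 0.113 times day 0.

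Other genes of the members had a hairpin that was higher in lungs than in culture. TRCN0000329236 against Trit1 had 0.0173%, 0.0316% and 0.0205% in culture and 0.164%, 0.183% and 0.108% in lungs, a change of 2.80 (SE 0.56, limma, BH-adjusted p = 0.00725). TRCN0000031425 against Dpp6 had 1.78%, 2.42% and 2.59% in culture and 5.83%, 5.75% and 8.94% in lungs, a change of 1.89 (SE 0.26, limma, BH-adjusted p = 0.00192). Both stood above every culture in all 3 mice, while the member hairpin of the same gene and pool stood below every culture. TRCN0000329237 against Trit1 changed by -0.53 (limma, BH-adjusted p = 0.382), and TRCN0000031424 and TRCN0000031427 against Dpp6 by -0.19 and 1.22 (limma, BH-adjusted p = 0.919 and 0.0507).

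The same held for Spert, Tmem33 and Ntf3. TRCN0000198963 against Spert had 0.0620%, 0.0891% and 0.0903% in culture and 0.187%, 0.255% and 0.455% in lungs, a change of 1.65 (SE 0.52, limma, BH-adjusted p = 0.0366), while TRCN0000178215 and TRCN0000178249 changed by -1.04 and 0.89 (limma, BH-adjusted p = 0.0538 and 0.168). TRCN0000216503 against Tmem33, in pool 12, had 1.09%, 1.17% and 1.28% in culture and 3.69%, 3.10% and 3.73% in lungs, a change of 1.40 (SE 0.25, limma, BH-adjusted p = 0.00187). A second Tmem33 hairpin of pool 12, TRCN0000216557, was lower than day 0 in lungs by -1.24 (SE 0.36, limma, BH-adjusted p = 0.0213) and changed by -0.79 against culture (limma, BH-adjusted p = 0.15), and TRCN0000320321 in pool 18 changed by -0.11 (limma, BH-adjusted p = 0.819). Beside the member, Tmem33 thus had 1 hairpin that was higher in lungs than in culture, 1 that was lower than day 0 and 1 that passed neither test. TRCN0000065438 against Ntf3 changed by 0.72 (SE 0.22, limma, BH-adjusted p = 0.0296), with cultures of 4.16%, 3.84% and 4.38% that overlapped the mice at 2.29%, 3.83% and 4.29%, and by -0.30 with library totals. Its mean share was lower in lungs, at 3.47% against 4.13%, while the TMM-scaled change was positive. TRCN0000065440 and TRCN0000065441 changed by -0.26 and -0.03 (limma, BH-adjusted p = 0.372 and 0.947).

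Against day 0, several of these hairpins had TMM-scaled changes that were higher in lungs, opposite to the share of the member of their gene. For Ntf3, TRCN0000065438 and TRCN0000065441 rose by 1.28 and 1.30 (limma, BH-adjusted p = 0.00295 and 0.0199). Their mean shares rose less, each to 1.18 times day 0. For Lama1, TRCN0000094205 and TRCN0000094207 rose by 2.57 and 1.33 (limma, BH-adjusted p = 0.000453 and 0.00653). In shares these 2 hairpins stood at 2.80 and 1.25 times day 0, again a smaller rise. Single hairpins rose against Dpp6 (TRCN0000031427, by 1.43), Trit1 (TRCN0000329236, by 1.76) and Tmem33 (TRCN0000216503, by 1.06), with limma BH-adjusted p of 0.0311, 0.0201 and 0.00353. In the direction of the member, TRCN0000094902 against Pcdh15 changed by -1.47, TRCN0000112418 against Kpnb1 by -1.82 and TRCN0000375964 against Cnot2 by -5.11, with limma BH-adjusted p of 0.00566, 0.0221 and 0.0393. Unlike the members, the Kpnb1 and Cnot2 hairpins had already fallen in culture, by -1.78 and -4.37 (limma, BH-adjusted p = 0.0153 and 0.00822). Their culture shares were 0.258 and 0.0651 times day 0. From culture to lungs they changed by -0.06 and -0.77 (limma, BH-adjusted p = 0.959 and 0.763).

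In 4 of the 24 genes every other hairpin with lung values had a lung mean of at most 0.25 times day 0: Ctnnb1, Sec63 and Eftud2, with 2 such hairpins each, and Csmd3, with 1. Over all 92 hairpins that met the day 0 and lung limits the same held for 11 (12.0%), and the difference was not tested. They are named here after their values were seen. For beta-catenin, TRCN0000012689 in pool 2 had 1.06%, 1.23% and 1.21% at day 0, 0.140%, 0.114% and 0.142% in culture, and 0.112%, 0.0828% and 0.146% in lungs. Its log2 change from day 0 to lungs was -3.03 (SE 0.31, limma, BH-adjusted p = 0.000151), and its lungs and cultures overlapped. TRCN0000012692 in pool 1 had 3.59%, 3.35% and 3.24% at day 0, 1.24%, 1.11% and 1.40% in culture, and 0.269%, 0.424% and 0.582% in lungs, a change from day 0 of -1.98 (SE 0.26, limma, BH-adjusted p = 0.00192). All 3 Ctnnb1 hairpins, in 2 pools, were thus lower than day 0 in all lung samples. The 2 that were not chosen had to be under the culture limit, and they had fallen in culture by -2.64 and -1.06 (limma, BH-adjusted p = 1.79e-13 and 1.39e-05). Neither passed for lungs against culture (limma, BH-adjusted p = 0.726 and 0.168), although all 3 lung shares of TRCN0000012692 lay below its cultures, with a mean 0.340 times theirs. Its TMM-scaled change was -0.61.

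Sec63 had a like pattern within pool 14. TRCN0000336301 had a mean of 2.36% at day 0, 0.375% in culture and 0.257% in lungs, a change from day 0 to lungs of -2.39 (SE 0.73, limma, BH-adjusted p = 0.0306). TRCN0000336302 had 3.15%, 0.646% and 0.198%, a change of -2.87 (SE 0.62, limma, BH-adjusted p = 0.00753). Both had fallen in culture, by -2.10 and -1.50 (limma, BH-adjusted p = 0.00389 and 0.00163). As their lung means met the lung limit, the rule could leave them out only because they were under the culture limit, so this contrast with the member is set by the rule. The Csmd3 hairpin TRCN0000087307 in pool 1 fell from 0.869% at day 0 to 0.323% in culture and 0.159% in lungs, a change from day 0 to lungs of -1.39 (SE 0.27, limma, BH-adjusted p = 0.00828). Against culture its TMM-scaled change was -0.02 (limma, BH-adjusted p = 0.981), although its lung shares of 0.130%, 0.140% and 0.206% all lay below its cultures of 0.334%, 0.256% and 0.380%, with a mean 0.490 times theirs.

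Some targets of the library, 42 of its 285 genes, were grouped by known function in 11 lists. The lists were chosen with earlier results of these data known, so the counts and the median below are a description. The lists held 147 hairpins, of which 68 met the day 0 and culture limits. Of these, 3 were members, beside 24 of all 411 (5.84%), namely Eftud2 among the 7 such hairpins of translation, splicing and nuclear pore genes, Cnot2 as the only such hairpin of RNA silencing and decay, and Ctnnb1 among the 6 of Hippo, Wnt and activin signalling. No member came from the lists of DNA replication and repair, MAPK and PI3K signalling, transcription and chromatin, membrane traffic and cytoskeleton, ion channels, inflammatory and death receptor signalling, nucleoside and lipid metabolism, or extracellular matrix. The lists cover only some targets, and the genes of the other members are in none of them. Among these, Rpa3, Foxa1, Arid2, Gosr2, Dpp6, Cacng2, Naip1 and Lama1 belong to functions that the lists name. The absence of members from a list is therefore not an absence from its function. The median ratio of lungs to day 0 over the 68 was 1.24, beside 0.951 over all 411.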

How the data were processed

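The authors deposited, per library, a normalised read signal for each hairpin. BWA 0.5.9 is named in the work, per the submitters' processing notes, and the normalization is not given in the sources used here. All 27241 deposited signal values were whole multiples of the smallest value of their library within 0.01 reads, so reads were recovered and unlisted hairpins taken as 0. Shares used own-pool targeting reads, with technical repeats averaged and culture libraries named for 2 pools used for both. PCR reads carry no molecular identifiers, so intervals and limits cover counting error only.

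The members and gene lists were chosen with earlier results of these data known. Because the unit is a scaled signal, limma 3.58.1 (R 4.3.3) on log2(CPM + 1), with TMM factors of edgeR 4.0.16, variance trend and robust estimation, was used per pool for the 2 arms compared. Technical repeats were summed, hairpins with a mean under 10 reads left out, Lungs 10C and 16D omitted, and p-values adjusted by Benjamini-Hochberg. The fit was tested on simulated data. edgeR, DESeq2 1.42.0, other scalings, pseudocount, filter, lane and left-out replicates were alternatives. Log2 changes understate rare hairpins.

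Members are named, except for items that are not reported here, with every library for the 12 lowest lung to day 0 ratios and for members in the gene lists. Other hairpins of their genes are named where limma called one in lungs against culture; those of Ctnnb1, Sec63, Csmd3, Kpnb1 and Cnot2 were chosen after their values were seen. Replicate letters do not pair the samples.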

Additional observations from a re-analysis of the deposited data

Results flagged for a closer look

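Lungs 10C holds almost no reads of its own pool and entered only the alternatives in which it was kept. In this library the Gosr2 hairpin held 18.1% of the pool 10 reads, or 352 of 1946. This is above its day 0 samples (0.602% to 0.744%) and its cultures (4.21% to 8.18%), and opposite to Lungs 10A and 10B (0.0540% and 0.0308%). Whether these reads come from the mouse or from other libraries was not tested. Only 4 groups of members had enough samples to test for a library that stands apart from the others, and none did.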

How the results depend on the processing

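Leaving out each replicate letter of each arm in turn gave 22 to 32 members in place of 24. It ended the membership of Spert (without day 0 B or culture B), Kpnb1 (day 0 C or culture A), Tmem33 (day 0 C, culture B or lung C), Sec63 (culture B or lung A), Foxa1 (culture B), Pcdh15 (culture C) and Ntf3 (lung C). The rule found 17 with control reads in the totals (without Arid2, Gosr2, Kpnb1, Ntf3, Pcdh15, Sec63 and Tmem33), 16 with a day 0 limit of 1%, 28 with medians (21 shared), 25 with the cultures of the day 0 lane (23 shared, without Eftud2) and 23 with Lungs 10C and 16D kept, where Gosr2 reversed to 3.12. Read against the lowest culture, the left-out mouse was lower in 89.8% of pairs, beside 53.6% of all pairs.

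For the other hairpins of these genes, lungs against culture gave 13 lower with library totals and 4 with the deposited values. Lungs against day 0 gave 18 lower and 7 higher with library totals, 7 higher with the deposited values and 17 higher with DESeq2, and culture against day 0 gave 31 lower with the deposited values. Without 1 replicate the ranges were 4 to 9 lower and 4 to 8 higher for lungs against culture, 7 to 18 and 7 to 14 for lungs against day 0, and 15 to 21 and 16 to 19 for culture against day 0. The lowest counts for lungs against culture came without culture B (lower) and without culture A (higher). For lungs against day 0, 18 lower came without lung A, and 7 lower and 7 higher without day 0 A. Changes that reversed were Ntf3 TRCN0000065438 at -0.30 with library totals, and Csmd1 TRCN0000101372 at 0.65 and Pcdh15 TRCN0000094902 at 0.017 with the deposited values; the cause was not tested. With a replicate block on the letters, which correlated above 0.1 in 24 of 50, 21 of 46 and 29 of 59 same-letter pairs, 5 were lower and 5 higher in lungs against culture, 10 and 11 in lungs against day 0, and 17 and 16 in culture against day 0.

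Calls for lungs against culture passed under every alternative run for Lama1 TRCN0000094204 and TRCN0000094205, Naip1 TRCN0000114748, Tmem33 TRCN0000216503, Trit1 TRCN0000329236 and Eftud2 TRCN0000294567. In the other 8 called hairpins at least 1 alternative lost the call. Depth limits the precision of Foxa1 in Lungs 6A, and 2 or 3 mice per pool limit every lung value.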
